A study of Homo sapiens with 6 samples.

Results

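The ETS factors are transcription factors that share the ETS domain, a winged helix-turn-helix fold that binds DNA around a GGAA core. Growth factor signals reach several of them through ERK, the last kinase of the RAS-MAPK cascade, which phosphorylates ETS1 and ETS2, whereas ETV4 and ETV5 are themselves transcribed as ERK output. EHF, ELF3, ELF5 and SPDEF are the epithelial branch of the family, and ERG and FLI1 are best known from endothelial and blood cells. ETS1 protein can also cooperate with SMAD proteins, the transducers of TGF-beta family ligands such as activin B.

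Here 10 of these genes (ETS1, ETS2, EHF, ELF3, ELF5, ERG, FLI1, ETV4, ETV5 and SPDEF) were followed through every probe set that the platform annotation assigns to them alone, 39 of 54613 probe sets. The arrays came from SUM-LM1 cells, which were derived from lung metastases of SUM159, a human breast cancer line, and are thus 1 line in culture. Cells were seeded at 12500 per ml on ultra-low attachment plates, where they grow as floating spheres, and received recombinant human activin B at 50 ng/ml in 3 biological replicates or BSA in PBS as vehicle in 3 others, both for 6 h. Activin B is the dimer of the inhibin beta B subunit. Values are log2 signals from Affymetrix Human Genome U133 Plus 2.0 arrays, normalized by robust multiarray averaging (RMA), and each difference is the activin B mean minus the vehicle mean. The probe sets were taken by gene symbol and not by value, but the genes were proposed with results of these same arrays in view, so their differences and adjusted p-values are given as a description of the fit and not as evidence about the family.

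The arrays had medians between 6.69 and 6.70 and correlated with each other at 0.9935 to 0.9961. Activin B replicate 3 stood apart, at 21.7 on the first principal component (29.5% of the variance) against -10.6 to 5.70 for the other arrays. This component rose with the replicate number in both groups, at -10.6, -5.98 and 5.70 in vehicle and -9.1, -1.67 and 21.7 in activin B. To show where signal without transcript may lie, 18 genes of unrelated tissues were read on the same arrays. Of these, 17 lay between 6.17 and 7.30, and NKX2-5, a heart factor, lay at 9.16. Signals of different probe sets are not amounts that can be set against each other, so these values serve only to show which ETS probe sets were dim. The limit used below, 7.30, leaves NKX2-5 out. It was exceeded by 14 ETS probe sets, while 4 lay above all 18 genes. By the markers fixed for cell types, all 13 mesenchymal and basal genes measured lay above 7.30, as did 3 of 15 luminal epithelial genes (KRT8, KRT18 and GATA3), 1 of 12 endothelial genes (PECAM1) and none of 11 leukocyte genes. No marker gene passed in any of these lists. The epithelial adhesion genes EPCAM and CDH1 were dim, at 6.28 and 6.29. In such bulk RNA, fewer cells that express a gene and less RNA per cell cannot be told apart.

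EHF and ETS1 were the ETS genes with the largest differences after activin B. Their brightest probe sets stood at 77.8% (EHF) and 78.3% (ETS1) of vehicle on the linear scale. Neither passed an adjusted p under 0.05 in the fit that left out the replicate number, and the fit with it is given in the last section. ETS2, with the brightest probe set of the 10 genes, and the ERK output factors ETV4 and ETV5 differed by at most 0.11 on the log2 scale in every probe set. Without the replicate number, none of the 39 ETS probe sets passed by limma with Benjamini-Hochberg adjustment, against 0.121% of all probe sets. With 1 probe set per gene none of 10 passed, against 0.192% of genes. At an unadjusted p under 0.05 there were 7 ETS probe sets (5.28% of all probe sets), 6 of them lower (2.47%) and 1 higher (2.81%). In 4 ETS probe sets all activin B arrays lay below all vehicle arrays (4.89% of all probe sets), and in 2 they lay above (4.91%). By brightest probe sets, 2 of the 10 genes were lower (2.75% of genes) and 1 was higher (3.14%) at an unadjusted p under 0.05, while 2 were lower without overlap (5.21%) and 0 higher (5.14%). A rule with looser p thresholds asked for an adjusted p under 0.25, a raw p under 0.05 and a log2 change beyond 0.5. By it 0 ETS probe sets passed (0.0787% of all) and 0 ETS genes (0.126%). The brightest sets of EHF and ETS1, and EHF set 232360_at, met both p conditions, but no ETS difference reached 0.5 in size. Over all probe sets this rule called 43, fewer than the 66 called at an adjusted p under 0.05. The median difference was -0.03 over the ETS probe sets and -0.00 over all probe sets.

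**Figure D1:**
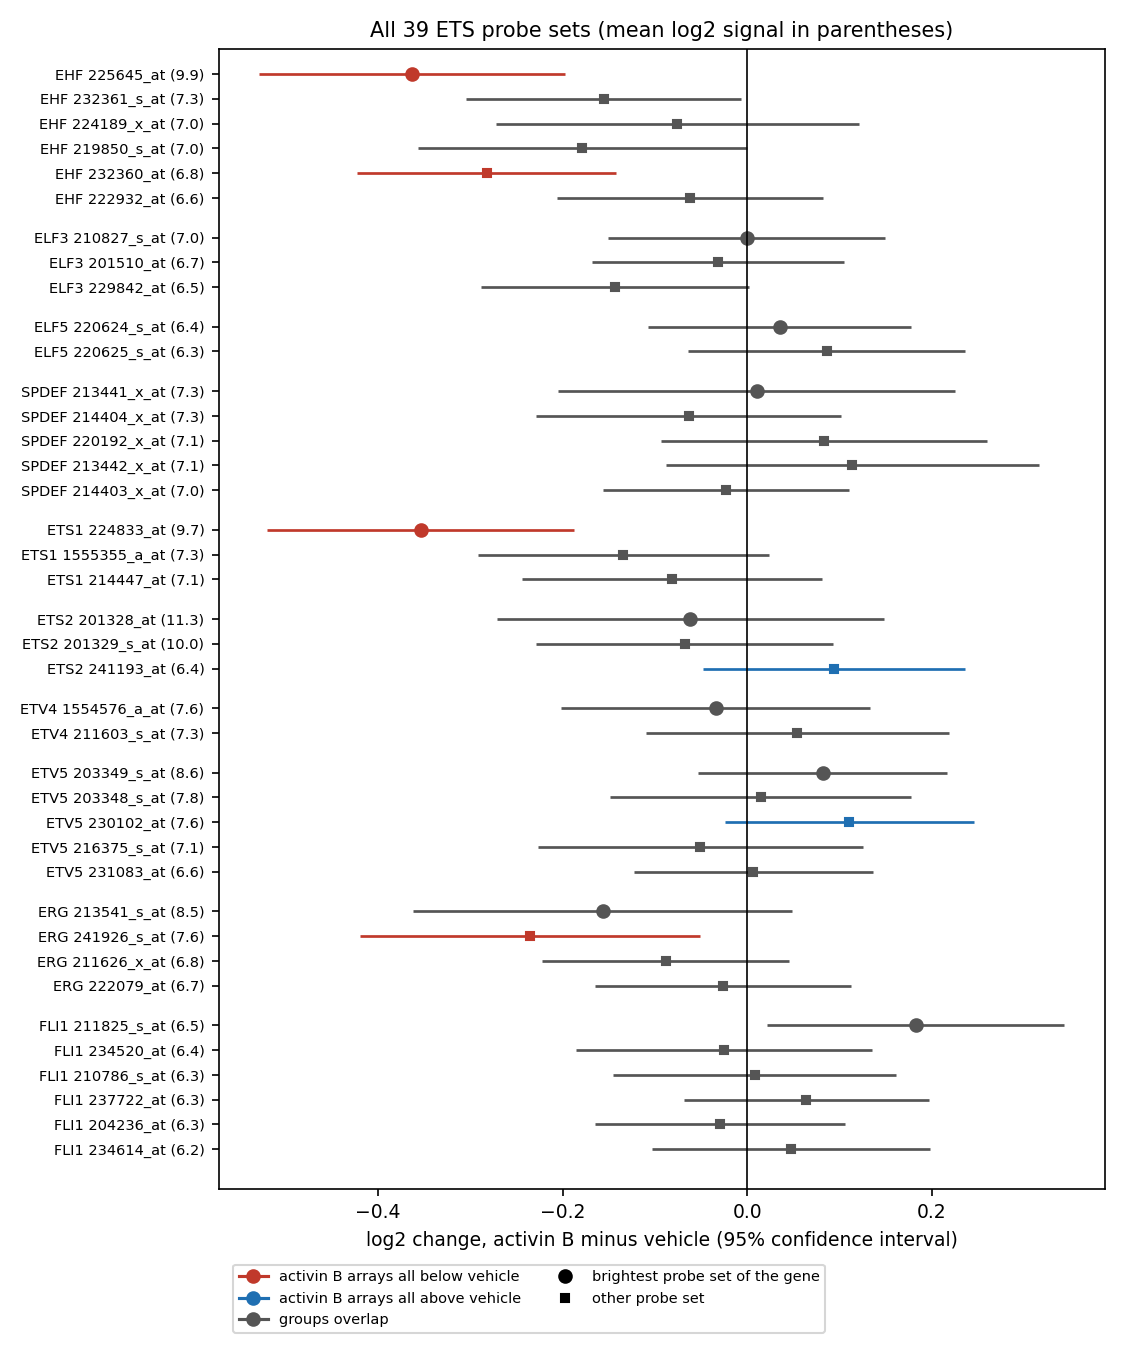
Log2 change, activin B minus vehicle, of each of the 39 ETS probe sets with its 95% confidence interval from limma, grouped by gene, with the mean log2 signal in parentheses. Circles mark the brightest probe set of a gene and squares the others, red where all activin B arrays lay below vehicle and blue where all lay above; EHF and ETS1 lie farthest left, at -0.36 and -0.35.

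EHF, an ETS factor of glandular and squamous epithelium, had log2 signals of 9.66, 9.77 and 9.85 in activin B against 9.97, 10.15 and 10.24 in vehicle in its brightest probe set, 225645_at. The lowest vehicle array lay above the highest activin B array. The means were 9.76 ± 0.10 in activin B and 10.12 ± 0.14 in vehicle (SD, n = 3 each), a difference of -0.36 with a 95% confidence interval of -0.53 to -0.20, or 1.29-fold lower (adjusted p = 0.156). A dimmer probe set, 232360_at, was also separated, with 6.58, 6.73 and 6.66 in activin B against 6.99, 6.87 and 6.94 in vehicle. Its difference was -0.28 ± 0.07 (SE; adjusted p = 0.241), although its signal lay where genes of unrelated tissues lay. All 6 EHF probe sets had a difference below 0, between -0.36 and -0.06, as did 27671 of all 54613 probe sets. Of the 6, 4 were lower at an unadjusted p under 0.05, against 2.47% of all probe sets. Among these 4, 219850_s_at was also dim, at 6.98. The 6 probe sets read the same RNA and are not replicates of each other. Averaged over the 6, the difference was -0.19 (adjusted p = 0.511). Leaving out any 1 array gave between -0.44 and -0.30 in the brightest probe set.

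RefSeq annotates 2 starts of EHF, and the 250 bases before each are shown here because EHF had the largest difference of the family. The same stretch is shown for the 2 starts of ETS2, the ETS gene with the brightest probe set, whose difference was -0.06. Sequences run 5′ to 3′ on the strand of the gene (GRCh38.p14), and capitals mark GGAA on either strand, the core of ETS sites, and CAGAC on either strand, the box that SMAD3 and SMAD4 bind.
EHF upstream start, chr11:34624007-34624256 (plus strand): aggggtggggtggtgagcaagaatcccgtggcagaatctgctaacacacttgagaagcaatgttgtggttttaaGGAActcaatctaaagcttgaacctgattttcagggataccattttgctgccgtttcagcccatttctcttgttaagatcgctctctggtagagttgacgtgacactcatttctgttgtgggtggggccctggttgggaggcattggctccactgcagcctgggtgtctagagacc
EHF downstream start, chr11:34632316-34632565 (plus strand): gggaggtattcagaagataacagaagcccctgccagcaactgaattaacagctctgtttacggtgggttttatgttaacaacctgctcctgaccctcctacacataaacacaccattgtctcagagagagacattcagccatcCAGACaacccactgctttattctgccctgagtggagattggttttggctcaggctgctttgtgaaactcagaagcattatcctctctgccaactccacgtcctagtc
ETS2 upstream start, chr21:38804933-38805182 (plus strand): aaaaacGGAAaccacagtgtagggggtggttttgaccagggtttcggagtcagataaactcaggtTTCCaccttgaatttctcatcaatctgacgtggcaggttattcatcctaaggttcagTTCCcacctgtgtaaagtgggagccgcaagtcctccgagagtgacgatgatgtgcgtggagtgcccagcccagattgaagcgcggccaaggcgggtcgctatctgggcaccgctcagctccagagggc
ETS2 downstream start, chr21:38805679-38805928 (plus strand): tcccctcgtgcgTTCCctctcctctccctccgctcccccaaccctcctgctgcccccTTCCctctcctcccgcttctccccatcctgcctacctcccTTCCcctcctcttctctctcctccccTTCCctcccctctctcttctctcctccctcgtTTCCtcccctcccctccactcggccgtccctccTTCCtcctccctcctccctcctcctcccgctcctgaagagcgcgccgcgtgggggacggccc
The upstream EHF window held 1 GGAA core and no CAGAC, and the downstream one held 1 CAGAC and no GGAA core. The ETS2 windows held 3 and 6 GGAA cores and no CAGAC. Such short words are common: of 35116 promoter windows of this length in the table, 92.7% held GGAA and 38% held CAGAC on either strand. The table had 11 windows for 6 of the 10 genes (ELF3, ELF5, ERG and SPDEF besides these). Of the 11, 10 held GGAA, 4 held CAGAC, 2 held GGCGCC, a GC-rich site of SMAD1 and SMAD5 found in 16.4% of all windows, and none held CCGGAA, an extended ETS core found in 14.5%. ETS1, FLI1, ETV4 and ETV5 were not matched. A match describes the letters only and does not show that a factor binds.

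Of the other epithelial members, ELF3 and ELF5 were dim in both groups and SPDEF lay close to the level of the dim genes. ELF3, which is active in differentiating epithelium, had 6.96, 7.01 and 7.05 in activin B against 6.88, 7.11 and 7.03 in vehicle in its brightest probe set, a difference of -0.00 with an interval of -0.15 to 0.15. Its groups overlapped fully. ELF5, the factor of milk-producing alveolar cells, had 6.32, 6.43 and 6.49 in activin B against 6.33, 6.37 and 6.43 in vehicle. Both ELF5 probe sets lay within the range of the unrelated-tissue genes, as did all 3 of ELF3, so a change in either gene could have been missed. SPDEF, a factor of luminal and mucus-secreting cells, was read by 5 probe sets of the cross-hybridising kind, with means between 6.97 and 7.33, of which 2 exceeded 7.30. Its brightest had 7.59, 7.36 and 7.07 in activin B against 7.37, 7.36 and 7.26 in vehicle, so the activin B arrays lay on both sides of vehicle. The difference of 0.01 became -0.12 without activin B replicate 1 and 0.15 when activin B replicate 3 was left out.

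**Figure D2:**
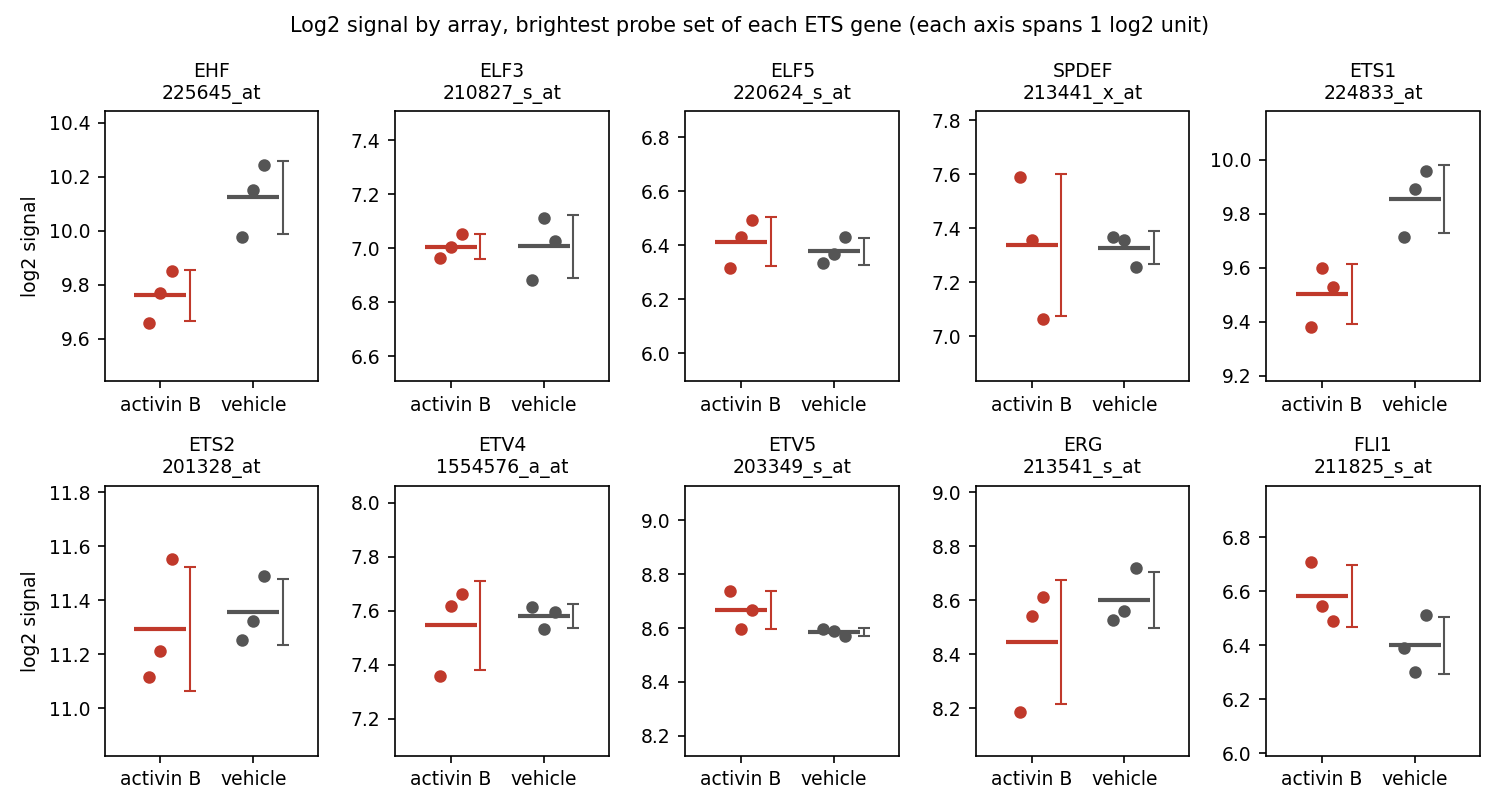
Points are the log2 signals of single arrays in the brightest probe set of each ETS gene, activin B in red and vehicle in grey, with the group mean (bar) and SD (error bar, n = 3 each); each axis spans 1 log2 unit. EHF and ETS1 show no overlap between groups, with activin B at 9.66 to 9.85 and 9.38 to 9.60, and the other 8 genes overlap.

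ETS1, the founding member of the family and a factor of invasive mesenchymal cells, had 9.38, 9.60 and 9.53 in activin B against 9.72, 9.89 and 9.96 in vehicle in its brightest probe set, 224833_at. All activin B arrays lay below all vehicle arrays. The means were 9.50 ± 0.11 in activin B and 9.86 ± 0.13 in vehicle (SD, n = 3 each). The difference was -0.35, with an interval of -0.52 to -0.19, or 1.28-fold lower (adjusted p = 0.173). The dimmer sets, 1555355_a_at and 214447_at, had differences of -0.13 and -0.08 whose intervals included 0. Averaged over all 3 probe sets, ETS1 differed by -0.19 (adjusted p = 0.425). Leaving out any 1 array gave between -0.42 and -0.29 in the brightest probe set.

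ETS2, the closest relative of ETS1 and likewise a substrate of ERK, had 11.12, 11.21 and 11.55 in activin B against 11.25, 11.32 and 11.49 in vehicle. The groups overlapped, with activin B replicate 3 the highest of the 6 arrays. The difference was -0.06 with an interval of -0.27 to 0.15, and -0.19 without that array (adjusted p = 0.803). The other bright probe set, 201329_s_at, had 9.89, 10.14 and 10.01 in activin B against 10.05, 10.01 and 10.18 in vehicle, a difference of -0.07 with an interval of -0.23 to 0.09. The dim 241193_at was at 6.37, 6.45 and 6.57 in activin B against 6.37 in each vehicle array, higher in activin B without overlap but with an interval of -0.05 to 0.24.

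ETV5 and ETV4, of the PEA3 group, follow ERK activity in many cells. ETV5 had 8.74, 8.60 and 8.67 in activin B against 8.60, 8.59 and 8.57 in vehicle in its brightest probe set. The difference of 0.08 had an interval of -0.05 to 0.22, so a rise above 0.22 or a fall beyond 0.05 lay outside it. The ETV5 set 230102_at had 7.70, 7.69 and 7.70 in activin B against 7.65, 7.51 and 7.60 in vehicle, without overlap and with a difference of 0.11 ± 0.06 (SE; adjusted p = 0.984). The remaining 3 ETV5 sets differed by -0.05 to 0.01. ETV4 had 7.36, 7.62 and 7.66 in activin B against 7.62, 7.53 and 7.59 in vehicle, a difference of -0.03 with an interval of -0.20 to 0.13. Its second set had 0.05, of the opposite sign.

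ERG, a factor that maintains endothelial identity, had 8.19, 8.54 and 8.61 in activin B against 8.53, 8.56 and 8.72 in vehicle. Activin B replicate 1 was the lowest array and the other activin B arrays lay within the vehicle range. The difference of -0.16 (interval -0.36 to 0.05) became -0.03 without that array. A dimmer ERG set, 241926_s_at, had 7.56, 7.53 and 7.48 in activin B against 7.58, 7.98 and 7.72 in vehicle. Its groups did not overlap, by a margin of 0.01, and the difference of -0.24 ± 0.09 (SE; adjusted p = 0.837) became -0.13 without vehicle replicate 2. All 4 ERG probe sets had a difference below 0, between -0.24 and -0.03, as did 27671 of all 54613 probe sets. FLI1, the nearest relative of ERG, was dim in all 6 of its probe sets, with means between 6.24 and 6.49. Its brightest had 6.71, 6.55 and 6.49 in activin B against 6.39, 6.30 and 6.51 in vehicle, a difference of 0.18 (interval 0.02 to 0.34; adjusted p = 0.909), whereas the other 5 lay between -0.03 and 0.06. The endothelial markers CDH5 and TEK were dim at 6.09 and 6.59. PECAM1, the 1 endothelial marker above 7.30, was at 7.70, 7.57 and 7.68 in activin B against 7.97, 7.76 and 7.78 in vehicle. The mean over all 12 endothelial markers was 6.50 to 6.56 in activin B arrays against 6.57 to 6.62 in vehicle arrays, but 11 of the 12 lay at or under 7.30. All arrays came from 1 breast cancer line in culture, and whether these markers bear on the ERG values was not tested.

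Several of these genes lie beside each other in the genome. In the RefSeq annotation, ETS1 and FLI1, ETS2 and ERG, and EHF and ELF5 are pairs of adjacent protein-coding genes with 0 others between them. In the pairs of ETS1 and EHF, the gene that was lower after activin B stood next to a dim one, FLI1 and ELF5. The difference was -0.35 for ETS1 and 0.18 for FLI1, and -0.36 for EHF and 0.04 for ELF5. For the remaining pair the differences were -0.06 for ETS2 and -0.16 for ERG.

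**Figure D3:**
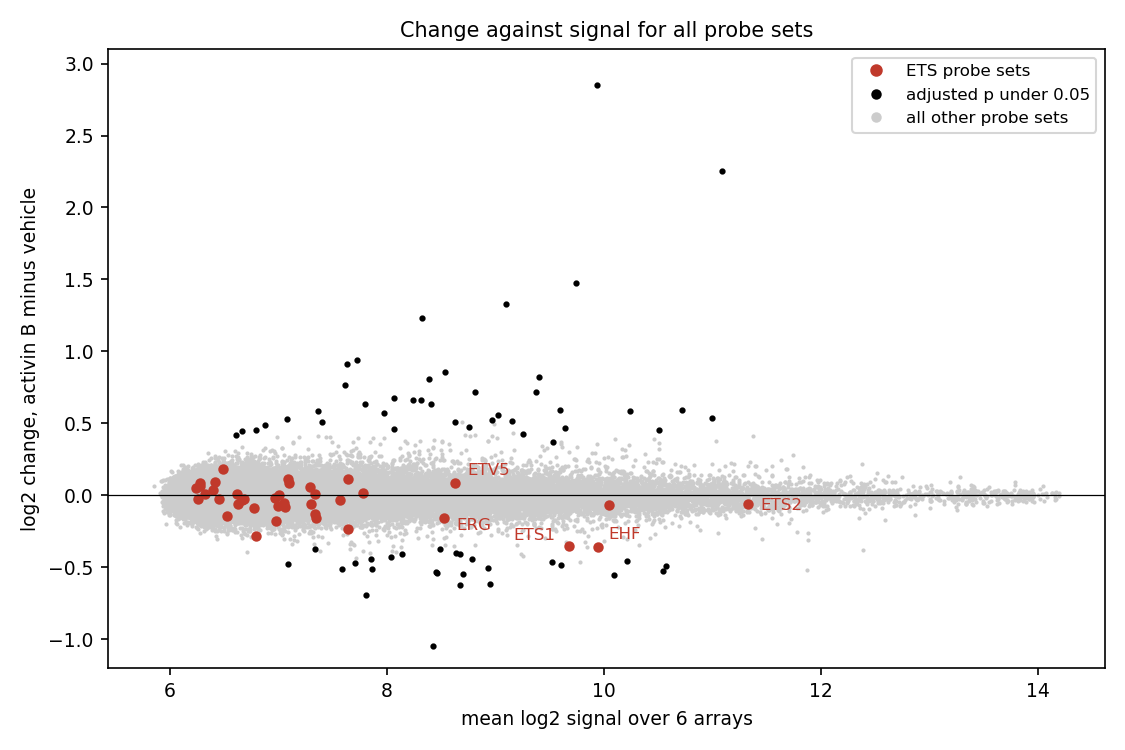
Log2 change, activin B minus vehicle, against the mean log2 signal over 6 arrays for all 54613 probe sets (grey), those at an adjusted p under 0.05 (black) and the 39 ETS probe sets (red). The 2 lowest of the bright ETS points are EHF and ETS1, at -0.36 and -0.35, and ETS2 lies at 11.32 on the signal axis with -0.06.

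The remaining ETS family was compared as a list. Of 17 measured genes none passed by limma after adjustment, and at an unadjusted p under 0.05 the count was 0, against 5.89% of genes. Their median difference was -0.01, and it was -0.02 over the 10 genes and -0.00 over all genes. The differences ran from -0.14 for FEV, an ETS factor of serotonergic neurons, to 0.13 for ETV1, the PEA3 group gene related to ETV4 and ETV5. ETV1, chosen after its values were seen, was bright, at 10.46, 10.18 and 10.16 in activin B against 10.27, 10.20 and 9.94 in vehicle, and its groups overlapped. ETV7 and ETV6, both with a pointed domain through which they form oligomers, had -0.09 and 0.12. Across the members of the PEA3 group, ETV1, ETV4 and ETV5, the differences of the brightest sets were thus 0.13, -0.03 and 0.08, each with an interval that included 0.

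Genes around ERK, the kinase that acts on ETS1 and ETS2, were counted next. Of 11 measured RAS-ERK kinases and adaptors none passed and 0 had an unadjusted p under 0.05, with differences between -0.07 and 0.14 (median 0.00). The highest was that of ARAF, a RAF kinase. Of 20 ERK output genes, 1 rose and none fell, where 0.192% of all genes passed in either direction. This was ERRFI1, an inhibitor of the EGF receptor, at 9.92, 10.04 and 9.72 in activin B against 9.29, 9.30 and 9.31 in vehicle (adjusted p = 0.00317). The next smallest p-values belonged to DUSP4, a nuclear phosphatase of ERK, with -0.28, SPRY2, an inhibitor of growth factor receptor signaling, with 0.27, and DUSP5, another ERK phosphatase, with -0.26 (adjusted p = 0.331, 0.331 and 0.741). In all, 6 of the 20 had an unadjusted p under 0.05, 4 higher and 2 lower, against 5.89% of genes. The same 6 were those whose groups did not overlap, which 5.14% of genes showed as higher and 5.21% as lower. Beside the 4 named they were FOSL1, an AP-1 subunit, with 0.20, and EPHA2, an ephrin receptor, with 0.14 (adjusted p = 0.777 and 0.934), both higher and both named after their values were seen. The list median was 0.02, and no test of the list as a whole was made.

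Among 18 measured partners and regulators of ETS proteins none passed and 3 had an unadjusted p under 0.05, 1 higher and 2 lower (5.89% of genes in either direction). JUNB, an AP-1 subunit, had 8.84, 8.81 and 9.01 in activin B against 8.55, 8.63 and 8.55 in vehicle, a difference of 0.31 ± 0.07 (SE; adjusted p = 0.173). FBXW7, a substrate adaptor of a ubiquitin ligase, differed by -0.25 (adjusted p = 0.592) and FOS by -0.18 (adjusted p = 0.934). The list median was 0.01.

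Target genes of ETS factors did not pass in any of 3 lists. For 20 genes of invasion and matrix the median difference was 0.01, and 3 had an unadjusted p under 0.05, 2 higher and 1 lower, against 5.89% of genes. Groups did not overlap in 5 of the 20, 3 lower (5.21% of genes) and 2 higher (5.14%). PLAU, the urokinase gene and a classic ETS target, had 10.61, 10.77 and 10.92 in activin B against 10.98, 10.96 and 11.07 in vehicle. All activin B arrays lay below vehicle, with a difference of -0.24 ± 0.08 (SE; adjusted p = 0.698). ITGAV, an integrin subunit, and PTGS2, the inducible cyclooxygenase, had 0.14 and 0.21 (adjusted p = 0.934 for both). For 19 genes of epithelium the median was 0.02, with 3 at an unadjusted p under 0.05 (5.89% of genes), all higher: CCL20, a chemokine, with 0.26, ANGPT1, an angiopoietin, with 0.20, and KRT4, a keratin of mucosal epithelium, with 0.17 (adjusted p = 0.635, 0.872 and 0.876). In this list 14 of the 19 lay at or under 7.30. For 14 genes of endothelium the median was -0.04, none had an unadjusted p under 0.05 (5.89% of genes), and 12 lay at or under 7.30. KDR, ICAM2 and VWF had the smallest p-values, with -0.15, 0.13 and -0.10.

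**Figure D4:**
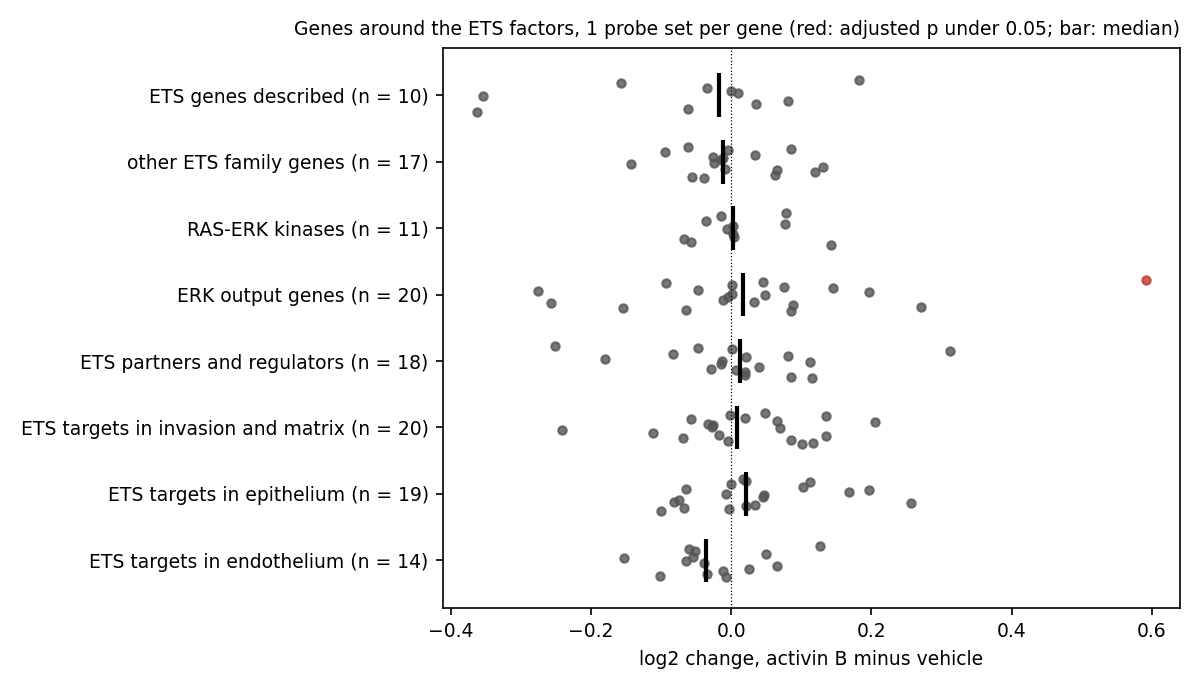
Log2 change, activin B minus vehicle, of each gene (points, 1 probe set per gene) in the ETS genes described and in 7 surrounding lists, with the number of measured genes in parentheses and list medians as black bars. ERRFI1 at 0.59 is the 1 gene at an adjusted p under 0.05 (red), and EHF and ETS1 lie farthest to the left.

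The genes whose signal followed EHF most closely were sought among 9887 other genes at or above the median signal, by Pearson correlation over the 6 arrays, as a description that includes the difference between groups. AMPD3, PMPCB, TNS3, IQGAP2 and ARHGAP22 came first, with correlations between 0.9825 and 0.9948. Their differences were small, between -0.22 for IQGAP2 and -0.09 for TNS3. After each group was centred on its own mean, their correlations with EHF lay between 0.956 and 0.979. ETS1 came in position 12, at 0.9755 over the arrays and 0.892 after centring. All of these values rest on the same 6 arrays.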

How the data were processed

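Total RNA of 6 cultures, 50 ng each, was labeled and hybridised to Affymetrix Human Genome U133 Plus 2.0 arrays, 3 for activin B and 3 for vehicle, with groups and replicate numbers taken from the sample titles. The deposited values are log2 signals, which the authors made from the scanner files by RMA in Chipster. Quantile normalization within RMA removes changes shared by most transcripts, and differences near background are compressed. Neither scanner files nor their dates were used.

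The 62 array controls were set aside. Of the other 54613 probe sets, 41091 carried 1 gene symbol of the platform annotation, 1801 several and 11721 none. All 10 ETS symbols matched RefSeq (GRCh38.p14) by gene identifier. For values per gene (19775 genes), the probe set brightest on average across the 6 arrays was used. Activin B was compared with vehicle in limma 3.58.1 (R 4.3.3) with empirical Bayes moderation (4 residual and 10.8 prior degrees of freedom), p-values were adjusted by Benjamini-Hochberg over all 54613 probe sets, and calls were made at an adjusted p under 0.05. All 95% intervals come from this fit. The p-values refer to the variation among these cultures, and 3 arrays per group limit the precision. The script was tested on arrays simulated with independent normal noise, at the moderated SD of each probe set. Of the simulated log2 changes, 28.2% were called at a size of 0.25 and 100% at 0.5. Moderated SDs vary less between probe sets than observed SDs, so these shares may be higher than real arrays would give.

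The ETS genes and the 12 other gene lists were chosen with earlier results of these data known. Named were all ETS probe sets, called genes of the other lists and up to 3 further genes with the smallest p, and the 5 genes most correlated with the ETS gene of largest difference. ETV3L and some entries of other lists were not analysed here. The alternatives tried were blocking on the replicate number, filtering of dim probe sets, cyclic loess, quantile normalization, centring on array medians, a trend or robust prior, array weights, omission of each array, looser thresholds and the mean of all probe sets of a gene. Figures were drawn with matplotlib 3.10.9.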

Additional observations from a re-analysis of the deposited data

Results flagged for a closer look

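The array controls were not part of any comparison. Of the controls read here, thr, dap, lys and phe, thr stood higher in the activin B arrays. For thr, a bacterial RNA added during labeling, all 6 control sets read higher in activin B than in vehicle, by 0.29 to 0.54 on the log2 scale, and in 3 sets every activin B array exceeded every vehicle array. The added RNAs dap, lys and phe (18 sets) had differences between -0.10 and 0.09. The remaining control sets were not compared. Whether this bears on any ETS value was not tested.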

How the results depend on the processing

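The count of ETS probe sets called was 0, as were those of ETS genes and of other ETS family genes. This held under filtering, normalization, prior, array weights, omission of any 1 array and, for genes, averaging of probe sets. It also held under the looser p thresholds, whose limit of 0.5 on the log2 change no ETS probe set reached. The exception was the replicate number as a block, under which 2 ETS probe sets and 2 ETS genes were called, EHF (adjusted p = 0.0279) and ETS1 (adjusted p = 0.0389), both lower. Over all 15 alternatives the adjusted p of EHF ran from 0.0279 to 0.695 and that of ETS1 from 0.0389 to 0.777. Same-numbered arrays of the 2 groups deviated together with correlations of 0.162, 0.041 and 0.192, and each array correlated best with its own number. The first principal component also rose with the number in both groups, so the data hint at a pairing. With 1 correlation under 0.1 and no label of a shared batch, the arrays were taken to share only a number. The block called 97 probe sets in the whole table, where the fit without it called 66. Omission of 1 array gave between 32 and 63, and the looser p thresholds with the limit on size gave 43. Each omission lowers the number of samples. Of 542 recomputed ETS values, 8 moved by more than 1 SD between replicates, and 0 of 104 list medians did. Dim probe sets, with 3 arrays per group, limit what could be seen for ELF3, ELF5 and FLI1.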
